A study of Mus musculus with 16 samples.

Results

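The genes described here encode cell surface receptors for collagen and fibronectin. They are the integrin alpha chains Itga1, Itga5, Itga8, Itga11 and Itgav, the integrin beta chains Itgb1, Itgb3 and Itgb5, and the discoidin domain receptors Ddr1 and Ddr2. They were taken by gene symbol, with every non-control probe that carries the symbol, which gave 10 genes and 15 probes out of 34763 genes and 55681 probes on the array. All 15 probes passed the filter on dim probes, so all 10 genes were tested. A total of 5 of them (Itga1, Itgav, Itgb1, Itgb3 and Ddr2) have 2 probes, and the brightest probe stood for the gene.

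The samples were primary mouse lung fibroblasts that had been cultured and passaged repeatedly, were transfected with a small interfering RNA (siRNA), and were collected 48 hours later. The control group (scr) received a scrambled siRNA, and the groups siLox, siLoxl1 and siLoxl2 received an siRNA against Lox, Loxl1 or Loxl2. These targets encode lysyl oxidases, copper enzymes by which collagen and elastin become cross-linked. Each group held 4 one-colour arrays. All 16 samples had been transfected, and no untransfected cells were analysed here. The mouse strain, the age of the animals, the siRNA sequences and whether the replicates came from separate cultures are not stated in the sources used here, and p-values therefore measure only the spread between these samples, which may be technical. The title given to the series mentions exogenous expression, but the sample labels describe knockdown, and the labels were followed.

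Integrins are receptors made of 1 alpha and 1 beta chain that tie the extracellular matrix to the actin cytoskeleton at focal adhesions. The alpha chains encoded by Itga1 and Itga11 pair with the beta chain of Itgb1 and bind collagen, those of Itga5, Itga8 and Itgav bind fibronectin and other ligands that carry an RGD motif, and integrins with the av chain can also release TGF-beta from its latent complex. The discoidin domain receptors are receptor tyrosine kinases that are activated by collagen itself. In lung fibroblasts these receptors are known to sense the amount and the stiffness of the matrix that the lysyl oxidases cross-link.

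A level is given here as log2 signal minus the array's 75th percentile, so 1 unit is a doubling of the signal. The scr and siLox arrays were on slide 1 and the siLoxl1 and siLoxl2 arrays on slide 2, and every group filled 1 row of its slide. The share of non-control spots well above background was 49.2% to 52.3% an array on slide 1 and 60.4% to 63.1% on slide 2. The median SD of a gene within a group was 0.167 in scr, 0.132 in siLox, 0.0928 in siLoxl1 and 0.0899 in siLoxl2. Lox was at 3.88 to 4.16 in scr and at 0.39 to 2.04 in siLox, which left 13.2% of the control level. In siLox the lysyl oxidases that were not targeted were lower too, Loxl2 at 61.0% and Loxl1 at 71.3% of scr (adjusted p = 0.0248 and 0.0347, limma). Loxl1 in siLoxl1 was at 44.9% of its level in siLoxl2. Loxl2 in siLoxl2 was at 47.8% of scr, but it was also at 59.0% of scr in siLoxl1, and siLoxl1 and siLoxl2 did not differ beyond the threshold in Loxl2 (adjusted p = 0.0551, limma). All 9 fibroblast markers were well above background on every array, whereas the epithelial markers Cdh1, Epcam, Sftpb, Sftpc and Cldn18 were above background on 0 arrays. The other 4 epithelial markers were detected, as Krt8, Krt18 and Krt19 were above background on all 16 arrays, and Scgb1a1 on all 4 arrays of scr, siLoxl1 and siLoxl2 and on 2 of siLox. All 13 leukocyte and macrophage markers were also above background on every array.

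The first comparison asked which receptors differ after knockdown of Lox, on slide 1. The alpha chains Itga1 and Itga5 fell in siLox, with log2 fold changes of -1.09 and -0.45, and no receptor gene rose past the threshold. A total of 2 of 10 receptor genes (20.0%) passed an adjusted p of 0.05, both lower, where 25.0% of all 22644 genes tested passed, 13.5% lower and 11.5% higher. On the level of probes, 3 of 15 passed, all lower (both of Itga1 and that of Itga5), beside 21.1% of all probes. The share is therefore near that of all genes. The median fold change of the receptors was -0.41 against -0.05 for all genes, and 9 of 10 receptors had a fold change below 0. All p-values of single genes are from limma with Benjamini-Hochberg adjustment over all genes tested, with 4 arrays a group.

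**Figure D1:**
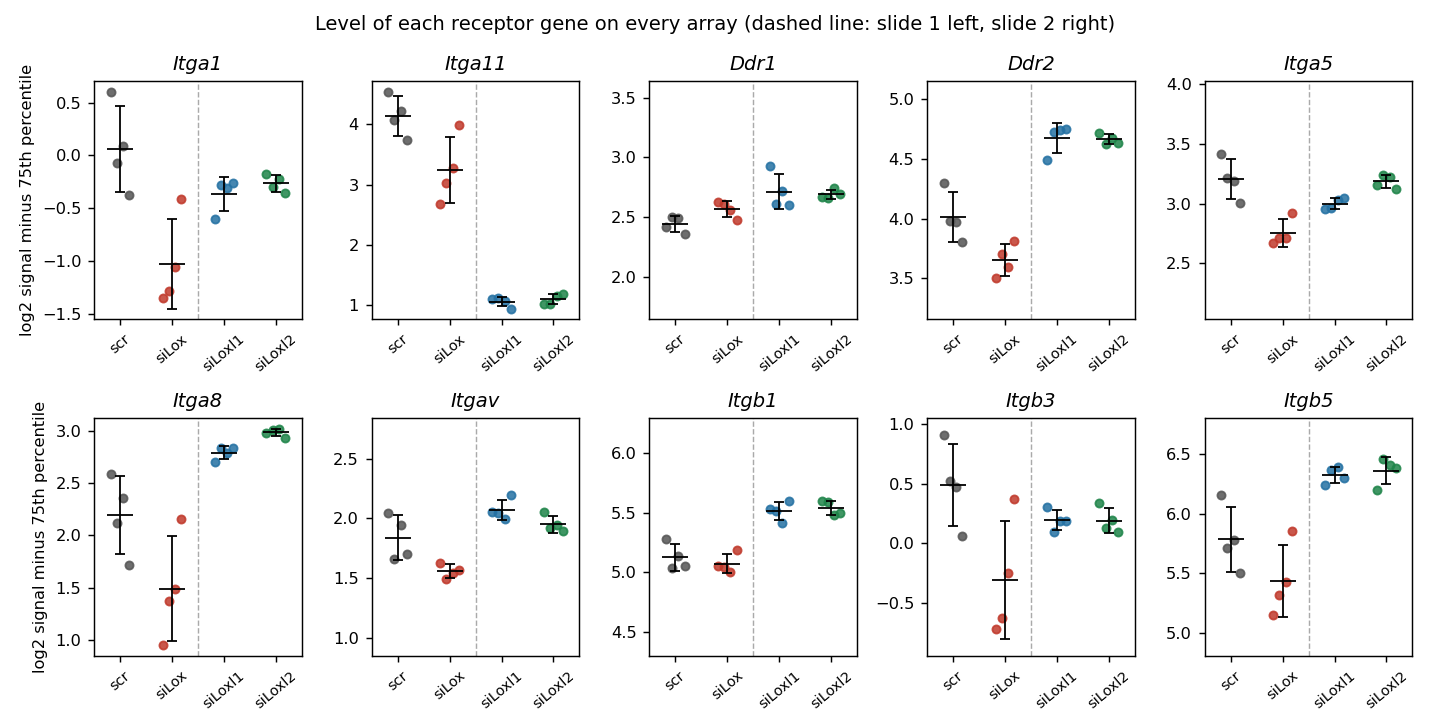
Levels of the 10 receptor genes on all 16 arrays, 1 panel a gene, each with its own vertical axis (log2 signal minus the 75th percentile of the array). Points are arrays, the horizontal bar is the group mean and the error bar 1 SD (n = 4). Itga11 lies at 3.73 to 4.53 in scr and at 0.94 to 1.18 on slide 2, and slide 1 arrays are spread more widely for most genes.

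Itga1, the alpha chain of the collagen receptor that prefers network-forming collagen, was at 0.60, -0.07, 0.09 and -0.38 on the scr arrays and at -1.35, -1.28, -1.05 and -0.42 on the siLox arrays. Every siLox array was below every scr array, although the highest siLox array and the lowest scr array were nearly level. The difference was -1.09 ± 0.26 (SE; adjusted p = 0.0268, 95% confidence interval -1.70 to -0.47), which left 47.1% of the control signal, and the exact two-sided permutation test gave p = 0.0286, the smallest that 4 against 4 allows. A total of 272 genes were further down in this comparison. The dimmer probe of Itga1 was at -3.37 to -2.93 in scr and at -4.56 to -3.50 in siLox, a difference of -0.98 ± 0.24 (adjusted p = 0.0285 over all probes), and was above background on 3 of 4 siLox arrays. Both probes of Itga1 therefore fell by a similar amount.

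Itga5, the alpha chain of the main fibronectin receptor, was at 3.42, 3.22, 3.19 and 3.01 in scr and at 2.67, 2.71, 2.71 and 2.92 in siLox. The groups did not overlap. The difference was -0.45 ± 0.10 (adjusted p = 0.0209, 95% confidence interval -0.69 to -0.22), which left 73.0% of the control signal. Itgav, whose chain binds vitronectin, fibronectin and latent TGF-beta, was at 1.66 to 2.05 in scr and at 1.49 to 1.63 in siLox, without overlap. Its difference of -0.28 ± 0.10 missed the threshold (adjusted p = 0.0711), and its second probe gave -0.10 ± 0.08, with overlapping groups. Itga1, Itga5 and Itgav were thus the 3 receptors whose groups did not overlap, all lower in siLox, where 16.9% of all genes did not overlap and were lower.

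Itga11, the alpha chain of a receptor for fibrillar collagen, was at 4.53, 4.06, 4.22 and 3.73 in scr and at 2.68, 3.03, 3.28 and 3.98 in siLox. Its siLox arrays 1 to 3 were below all scr arrays, and siLox array 4 lay inside the scr range. The difference was -0.89 ± 0.29 and missed the threshold (adjusted p = 0.0563, 95% confidence interval -1.56 to -0.23). Itga8, whose chain binds RGD ligands such as nephronectin, was at 2.58, 2.12, 2.36 and 1.72 in scr and at 0.95, 1.37, 1.49 and 2.15 in siLox, with the same array overlapping the controls. Its difference of -0.70 ± 0.28 also missed the threshold (adjusted p = 0.0969). Itgb3, the beta chain that pairs with av in the vitronectin receptor, was at 0.06 to 0.91 in scr and at -0.72 to 0.37 in siLox, with a difference of -0.80 ± 0.27 (adjusted p = 0.0647). Its second probe was above background on 3 of 4 scr arrays and 1 of 4 siLox arrays and gave -0.84 ± 0.40 (adjusted p = 0.160 over all probes).

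The collagen-activated kinase Ddr2 was at 3.80 to 4.30 in scr and at 3.51 to 3.81 in siLox, a difference of -0.36 ± 0.12 (adjusted p = 0.0590), and its second probe gave -0.34 ± 0.13. The beta chain Itgb5, which pairs with av, differed by -0.35 ± 0.19 (adjusted p = 0.190), with overlapping groups. Itgb1, the common partner of the alpha chains of Itga1, Itga5, Itga8 and Itga11, was at 5.04 to 5.28 in scr (mean 5.12) and at no more than 5.19 in siLox (mean 5.07), with overlapping groups. Its difference was -0.05 ± 0.08 (adjusted p = 0.619), and the 95% confidence interval of -0.23 to 0.12 does not reach the fold of Itga1. Ddr1 was the only receptor gene with a fold change above 0, at 0.12 ± 0.06 (adjusted p = 0.162).

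**Figure D2:**
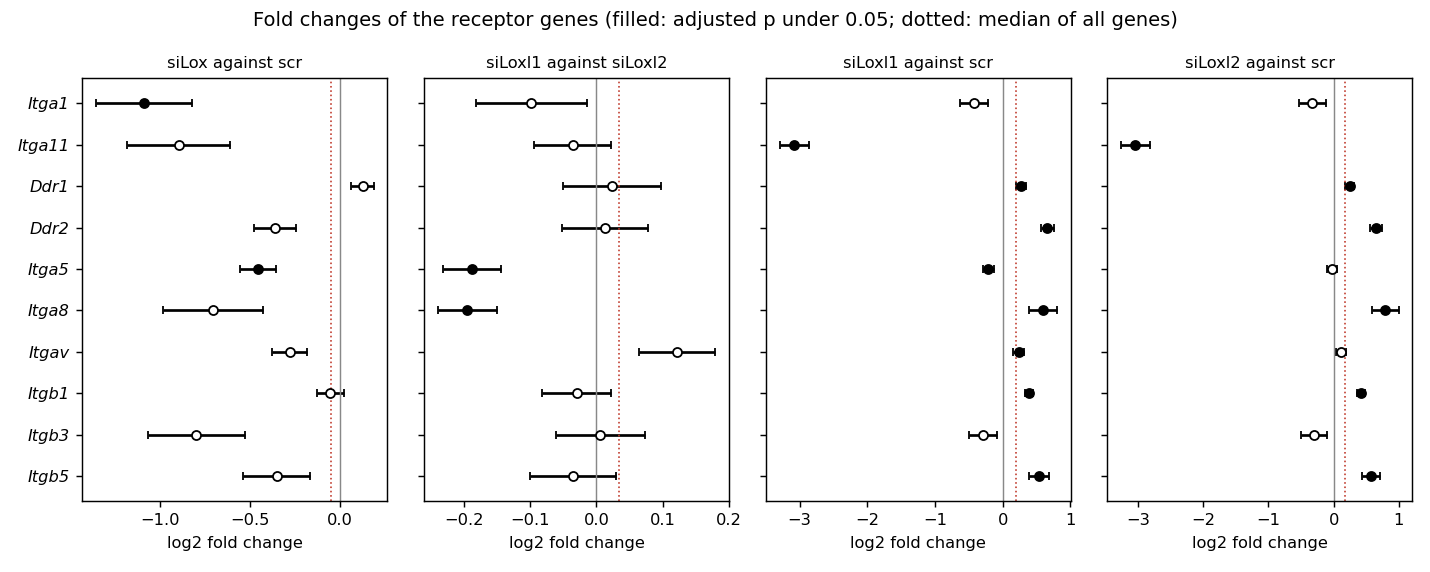
Fold changes of the 10 receptor genes in the 4 comparisons, as log2 differences on horizontal axes that differ between panels. Points are fold changes of the brightest probe, bars are standard errors, filled points passed an adjusted p of 0.05, the grey line is 0 and the dotted line is the median of all genes. In siLox against scr, 9 of 10 points lie below 0 and 2 are filled, and in both comparisons between slides Itga11 lies near -3 while Ddr2 lies above 0.6.

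The receptors moved together across the arrays of slide 1. The scr array 1 was the highest of its group for 9 of 10 receptors, against 35.2% of all genes, and scr array 4 was the lowest for 8 of 10, against 34.0%. Among the siLox arrays, array 4 was the highest for 8 of 10 receptors (31.6% of all genes) and array 1 the lowest for 7 of 10 (34.2%). Lox itself was lowest on siLox array 1, at 0.39, and highest on siLox array 4, at 2.04. In scr, which received no siRNA against Lox, it was at 4.16 on array 1, nearly level at 4.15 on array 3, and lowest on array 4, at 3.88. The scr array 3 was the highest of its group for 0 of 10 receptors. Whether the receptor levels follow Lox was not tested. Among all genes that fell in siLox, scr array 1 was the highest scr array for 73.4% and siLox array 4 the highest siLox array for 63.7%. With replicate 4 of both groups left out, an alternative chosen after seeing the data, 7 of 10 receptor genes passed, all lower, Itga1 at -1.44 and Itga8 at -1.08. In that fit 4125 of all 22644 genes tested passed lower and 3675 higher, so more of all genes passed too. With 1 array left out in turn, 6 passed without scr array 4, 5 without siLox array 4, 1 (Itga5) without scr array 1, and 0 without scr array 2, scr array 3, siLox array 1, siLox array 2 or siLox array 3. The number of all genes that passed also changed with the array left out, and its range is given with the processing alternatives at the end. Whether the receptor counts moved more than those of all genes was not tested, so they are not read as particular to the receptors.

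**Figure D3:**
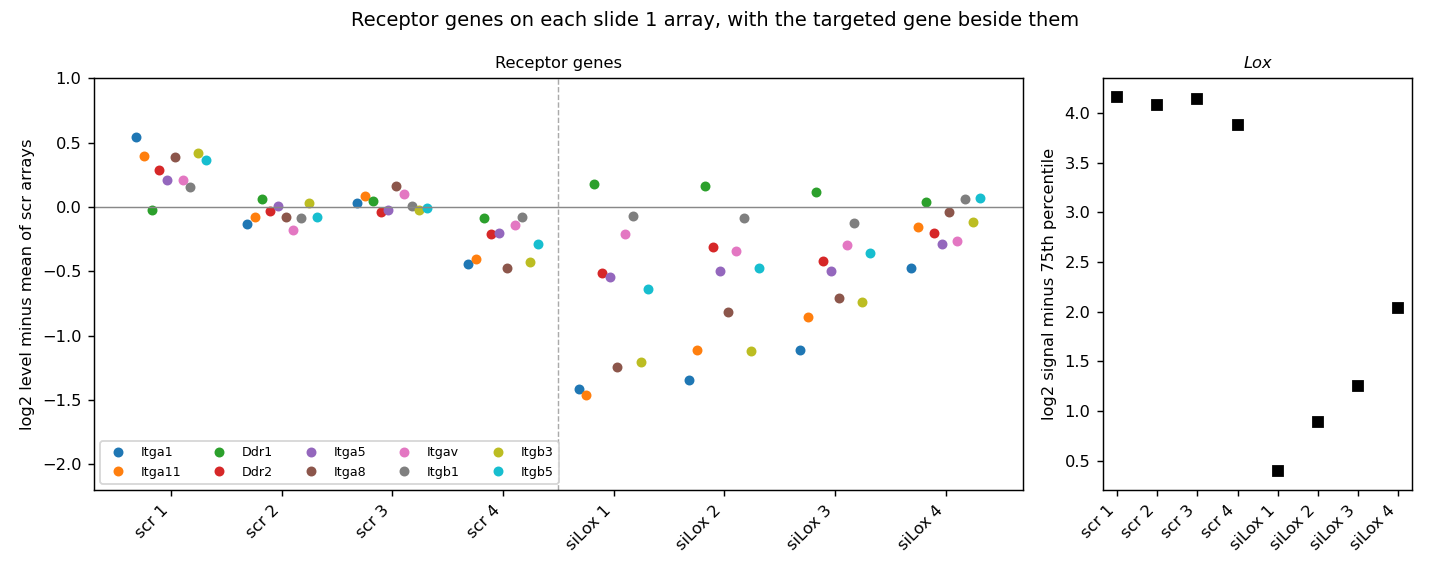
Receptor levels on each slide 1 array as log2 differences from the mean of the scr arrays (left, 1 colour a gene), and the level of Lox on the same arrays (right, log2 signal minus the 75th percentile). On siLox array 4, where Lox is at 2.04, 8 of 10 receptors are at their highest siLox level. On scr array 1, where Lox is at 4.16, 9 of 10 are at their highest scr level. For scr array 3, where Lox is at 4.15, that number is 0 of 10. A link between Lox and the receptors was not tested.

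The promoters of Itga1, Itga5, Itga8 and Itga11 are shown because the receptor genes called within a slide are Itga1, Itga5 and Itga8, and the largest difference between slides is that of Itga11. They are the 250 bases before the RefSeq start of the gene in build GRCm38.p6, 5′ to 3′ on the strand of the gene. Capitals mark matches, on either strand, to the Smad box CAGAC or the Sp1 box GGGCGG. Their positions are chr13:115101965-115102214 (minus strand), chr15:103366792-103367041 (minus strand), chr2:12301945-12302194 (minus strand) and chr9:62677605-62677854 (plus strand).
Itga1: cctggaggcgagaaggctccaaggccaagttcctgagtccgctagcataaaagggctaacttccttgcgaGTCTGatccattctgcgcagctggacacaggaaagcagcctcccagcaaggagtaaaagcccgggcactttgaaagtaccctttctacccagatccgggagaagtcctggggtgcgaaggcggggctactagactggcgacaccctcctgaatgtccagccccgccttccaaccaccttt
Itga5: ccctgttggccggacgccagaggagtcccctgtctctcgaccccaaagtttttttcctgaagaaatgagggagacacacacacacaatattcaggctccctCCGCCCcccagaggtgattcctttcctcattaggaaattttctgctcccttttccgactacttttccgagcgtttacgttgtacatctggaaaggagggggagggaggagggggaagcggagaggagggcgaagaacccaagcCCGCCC
Itga8: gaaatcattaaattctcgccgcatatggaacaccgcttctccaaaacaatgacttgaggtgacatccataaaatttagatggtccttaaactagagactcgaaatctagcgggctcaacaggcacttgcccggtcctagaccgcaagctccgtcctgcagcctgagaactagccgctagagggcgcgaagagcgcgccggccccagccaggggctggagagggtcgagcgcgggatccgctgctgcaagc
Itga11: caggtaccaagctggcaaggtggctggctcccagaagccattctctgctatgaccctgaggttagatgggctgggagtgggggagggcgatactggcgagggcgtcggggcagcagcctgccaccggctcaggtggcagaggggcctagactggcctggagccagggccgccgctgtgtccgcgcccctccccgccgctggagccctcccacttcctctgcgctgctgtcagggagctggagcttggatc

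A total of 5 motifs were searched on both strands in the same window of 32851 RefSeq promoters: the Smad box CAGAC, the AP-1 site TGANTCA, the Sp1 box GGGCGG, the TEAD site GGAATG and the CArG box. The shares of all promoters that hold them were 42.2%, 6.75%, 32.7%, 12.6% and 1.47%. A promoter was found for 9 receptor genes, and Ddr1 has 4. The Smad box was in the promoters of Ddr1, Itga1 and Itgb1, the AP-1 site in Ddr1, the Sp1 box in Ddr1, Itga5, Itgb1 and Itgb5, the TEAD site in Itgb1, and the CArG box in 0 of the 9. The promoters of Itga8, Itga11, Itgav and Ddr2 held none of the 5. The match in Itga1 lies 180 bases before the start and those in Itga5 149 and 6 bases before it. These are matches of letters in this window and say nothing of binding.

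The second comparison set siLoxl1 against siLoxl2, both on slide 2. Itga8 and Itga5, alpha chains of RGD receptors, fell in siLoxl1, each with a log2 fold change of -0.19, and no receptor rose past the threshold. These 2 of 10 genes (20.0%) stand beside 8.81% of all genes tested, 2.70% lower and 6.10% higher, and 2 of 15 probes passed beside 6.73% of all probes. The receptor median was -0.03 against 0.03 for all genes. Among all genes that passed, 69.3% were higher in siLoxl1, but 56.1% after quantile normalization and 56.5% in the value table of the authors.

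Itga8 was at 2.70, 2.83, 2.79 and 2.83 on the siLoxl1 arrays and 2.98, 3.01, 3.02 and 2.93 on the siLoxl2 arrays. The groups did not overlap, and the difference was -0.19 ± 0.04 (adjusted p = 0.0365, 95% confidence interval -0.30 to -0.09). Itga5 was at 2.96, 2.96, 3.03 and 3.05 on the siLoxl1 arrays and 3.16, 3.24, 3.22 and 3.12 on the siLoxl2 arrays, also without overlap, and differed by -0.19 ± 0.04 (adjusted p = 0.0388). These were the only 2 receptors without overlap, where 5.62% of all genes did not overlap and were lower. The signal of each was 87.4% and 87.8% of that in siLoxl2, so the differences are small in size. Neither call held when any 1 of the 8 arrays was left out, nor with a replicate block. With normexp background correction Itga8 was at -0.10 and not called, while Itga5 at -0.25 and Itgav at 0.22 were.

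The other 8 receptors did not pass between siLoxl1 and siLoxl2, with adjusted p from 0.212 to 0.963. Itgav had the largest difference among them, 0.12 ± 0.06, and its second probe gave 0.09 ± 0.05. For Itga11 the difference was -0.04 ± 0.06, with a 95% confidence interval of -0.17 to 0.10. For the collagen receptors Itga1 and Ddr2 it was -0.10 ± 0.08 and 0.01 ± 0.06. Of the 5 genes with 2 probes, the probes had the same sign in 2.

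The remaining comparisons set siLoxl1 and siLoxl2, on slide 2, against scr, on slide 1. In them siRNA and slide cannot be told apart, and they share the scr arrays. Itga11 fell, with log2 fold changes of -3.08 in siLoxl1 and -3.04 in siLoxl2, whereas Itga8, Itgb1, Itgb5, Ddr1 and Ddr2 rose in both. Against scr, 8 of 10 receptor genes passed in siLoxl1, 6 higher and 2 lower, and 6 of 10 passed in siLoxl2, 5 higher and 1 lower. Of all genes, 65.1% passed in siLoxl1 (43.3% higher, 21.9% lower) and 64.8% in siLoxl2 (41.4% higher, 23.4% lower), so a count of receptors of this size is close to that of any genes. The groups did not overlap for 5 receptors that were higher and 1 that was lower in each comparison, where the shares of all genes were 39.1% and 19.1% in siLoxl1 and 37.2% and 20.1% in siLoxl2. Of the 15 probes, 12 and 7 passed, beside 62.5% and 62.3% of all probes. The median of all genes was 0.19 in siLoxl1 and 0.17 in siLoxl2, and that of the receptors 0.25 and 0.18. Of the genes that passed, 66.4% and 63.9% were higher, but 55.5% and 53.9% after quantile normalization, 55.4% and 53.7% in the value table of the authors, and 45.6% and 44.1% with normexp background correction.

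Itga11 was at 4.53, 4.06, 4.22 and 3.73 in scr, at 1.10, 1.12, 1.08 and 0.94 on the siLoxl1 arrays and 1.03, 1.03, 1.15 and 1.18 on the siLoxl2 arrays. All 8 slide 2 arrays were below all 8 slide 1 arrays, siLox included. The differences from scr were -3.08 ± 0.22 and -3.04 ± 0.22 (adjusted p = 2.02e-08 and 2.82e-08), which left 11.8% and 12.1% of the signal, and 168 and 115 genes were further down. Relative to the median of all genes they were -3.27 and -3.21. Before scaling, the log2 signal of Itga11 was at 12.49 to 13.43 in scr and 10.77 to 10.96 on slide 2, while the unscaled signals of all other receptors were higher on slide 2 than in scr on average. The gene has 1 probe, at chr9:62631667-62631726 (mm9, plus strand). Over 17 alternatives the fold change ranged from -3.22 to -2.95 in siLoxl1 and from -3.18 to -2.91 in siLoxl2.

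Ddr2 was at 3.80 to 4.30 in scr, at 4.49, 4.72, 4.74 and 4.75 on the siLoxl1 arrays and 4.72, 4.63, 4.68 and 4.64 on the siLoxl2 arrays. Slide 2 was above slide 1 on every array. The differences from scr were 0.66 ± 0.10 and 0.65 ± 0.10, or 0.47 and 0.48 above the median of all genes. The second probe gave 0.35 ± 0.10 and 0.36 ± 0.10, so its size was smaller and its groups overlapped. Ddr1 rose by 0.27 ± 0.07 and 0.25 ± 0.07, which is 0.08 above the median of all genes in both.

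Itga8 rose by 0.59 ± 0.21 in siLoxl1 and by 0.79 ± 0.21 in siLoxl2 (adjusted p = 0.0213 and 0.0041), and its slide 2 arrays at 2.70 to 3.02 were all above the scr arrays at 1.72 to 2.58. Itgb1 rose by 0.39 ± 0.06 and 0.42 ± 0.06, and Itgb5 by 0.54 ± 0.14 and 0.58 ± 0.14. Relative to the median of all genes these 2 beta chains were at 0.19 and 0.35 in siLoxl1. After quantile normalization neither passed in siLoxl1, with Itgb1 at 0.12 and Itgb5 at 0.22, and in siLoxl2 Itgb1 passed at 0.21 and Itgb5 at 0.31 did not. The value table of the authors gave the same calls. Under both settings Itga8, Itgav and Ddr1 also did not pass in siLoxl1, at 0.48, 0.12 and 0.15 after quantile normalization, and Ddr1 at 0.16 missed the threshold in siLoxl2 in the value table. Itgav rose in siLoxl1, by 0.24 ± 0.08 (adjusted p = 0.0187), but was only 0.04 above the median of all genes, and in siLoxl2 it was at 0.11 ± 0.08 (adjusted p = 0.227).

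Itga5 fell in siLoxl1 by 0.21 ± 0.08 (adjusted p = 0.0291) with overlapping groups, but was at -0.06 and not called with normexp background correction. It was at -0.02 ± 0.08 in siLoxl2, where the sign turned with normexp background correction (0.19). Itga1 was at -0.43 ± 0.21 and -0.33 ± 0.21, and Itgb3 at -0.29 ± 0.21 and -0.30 ± 0.21, none of them past the threshold. The dim second probe of Itgb3, above background on 3 of 4 scr and 3 of 4 siLoxl1 arrays and on all siLoxl2 arrays, gave -1.20 ± 0.43 and -1.01 ± 0.43 (adjusted p = 0.0266 and 0.0576 over all probes), so the 2 probes of this gene differ in size. The dimmer probe of Itga1 gave -0.05 ± 0.18 and -0.04 ± 0.18, that of Itgb1 0.27 ± 0.10 and 0.19 ± 0.10, and that of Itgav 0.24 ± 0.06 and 0.15 ± 0.06. After quantile normalization 3 receptors passed in siLoxl1 (Itga11, Itga5 and Ddr2), at -3.21, -0.35 and 0.41. Of all 22644 genes tested, 7822 passed higher and 6261 lower in that setting.

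Other members of the integrin family, their ligands and their partners inside the cell were read from lists of genes by function. In siLox against scr, 1 of 11 other integrin alpha chains rose (Itga6, a laminin receptor chain, 0.27 ± 0.06) and 0 fell, with 5 at an unadjusted p under 0.05 in limma, and 2 rose and 4 fell with replicate 4 of both groups left out. Of 4 other beta chains, 0 passed and 1 had an unadjusted p under 0.05. Itgb7 and Itgb2, beta chains of leukocyte integrins, were at 0.44 ± 0.17 and 0.39 ± 0.17. Of 10 other matrix receptors, 3 rose and 4 fell: Dag1, which encodes dystroglycan, at -0.90 ± 0.19, the collagen uptake receptor Mrc2 at -0.71 ± 0.20, Lrp1 at -0.70 ± 0.17, and Cd44, the hyaluronan receptor, at 0.55 ± 0.14. The list medians were -0.17, 0.34 and -0.21 in this order, against -0.05 for all genes, of which 25.0% passed, 11.5% higher and 13.5% lower.

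Among 20 matrix ligands of the receptors, 10 fell and 1 rose in siLox, with a median of -0.33. The laminin chain Lamc1 was at -0.92 ± 0.19, the collagen chains Col6a1 and Col5a2 at -0.91 ± 0.22 and -0.80 ± 0.21, and fibrillin Fbn1 at -0.68 ± 0.19. After quantile normalization 8 fell and 1 rose, and with replicate 4 of both groups left out 14 fell and 1 rose. Of 31 genes of integrin activation and focal adhesion, 13 fell and 3 rose, with a median of -0.21. Of all genes 13.5% fell and 11.5% rose, with a median of -0.05. Those with the largest change were Dab2 at -0.87 ± 0.10, an adaptor of integrin endocytosis, Lims1 at -0.64 ± 0.12, part of the integrin-linked kinase complex, the focal adhesion protein Zyx at -0.61 ± 0.07, and the talin Tln2 at -0.53 ± 0.12.

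**Figure D4:**
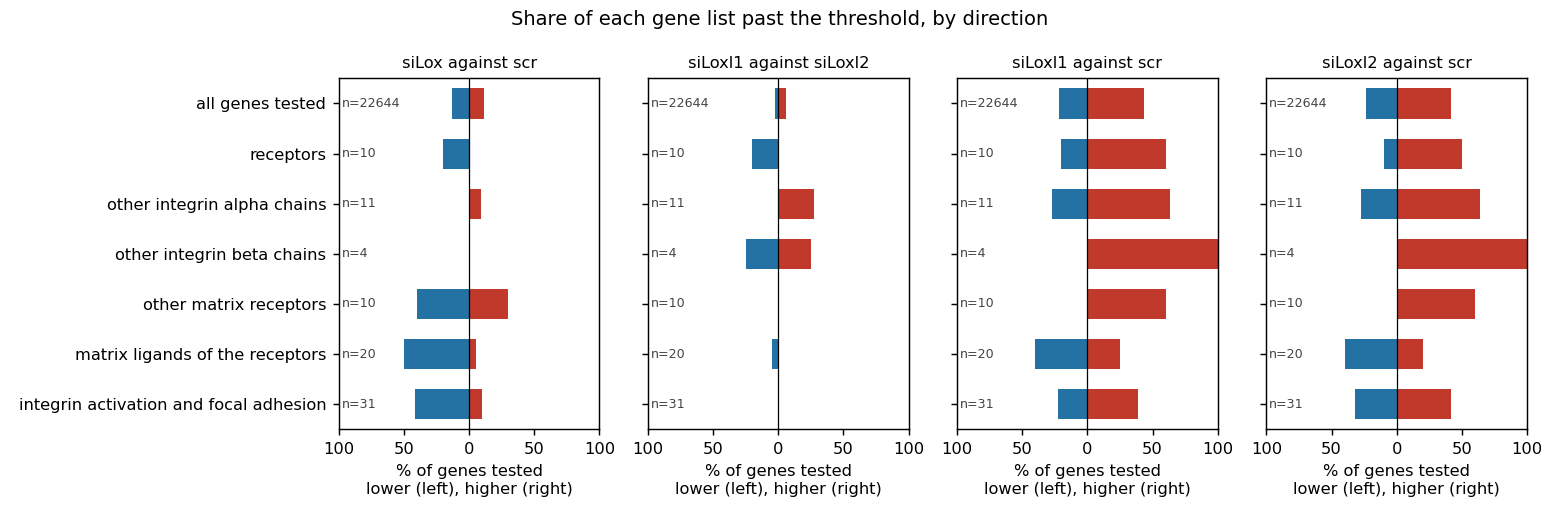
Share of the tested genes of each list that passed an adjusted p of 0.05, lower to the left (blue) and higher to the right (red), as percent of the genes tested (n), in the 4 comparisons. In siLox against scr, 10 of 20 matrix ligands and 13 of 31 focal adhesion genes are lower, where 13.5% of all genes are.

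Between siLoxl1 and siLoxl2, where 8.81% of all genes passed (6.10% higher, 2.70% lower), 3 of 11 other alpha chains rose and 0 fell: Itga2 at 0.40 ± 0.08, Itga4 at 0.22 ± 0.06 and Itga9 at 0.18 ± 0.04. The median of this list was -0.12, with 7 of 11 genes below 0, against a median of 0.03 for all genes. Only 1 of 11 passed after quantile normalization. Of 4 other beta chains Itgb2 rose (0.21 ± 0.05) and Itgb7 fell (-0.24 ± 0.06). Of 10 other matrix receptors 0 passed in limma, with 2 at an unadjusted p under 0.05, Sdc4 at 0.41 ± 0.11 and Sdc3 at -0.17 ± 0.05, both syndecans. Of 31 focal adhesion genes 0 passed, with 6 at an unadjusted p under 0.05, and Fermt3 and Lims1 were at 0.28 ± 0.19 and 0.21 ± 0.06. Of 20 ligands, Col6a1 alone passed, at -0.29 ± 0.04, and 3 fell after quantile normalization. Fn1, which encodes fibronectin and was chosen after its values were seen, was at 8.25, 8.33, 8.28 and -2.60 on the siLoxl1 arrays and at 8.21 to 8.25 in siLoxl2. Its only kept probe was thus low on siLoxl1 array 4 alone.

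Against scr, 7 of 11 other alpha chains rose and 3 fell in both siLoxl1 and siLoxl2, but with normexp background correction 4 rose and 4 fell in siLoxl1 and 5 rose and 4 fell in siLoxl2. Of all genes, 65.1% and 64.8% passed in these comparisons, 43.3% and 41.4% higher and 21.9% and 23.4% lower. The leukocyte chain Itgax was at 2.35 ± 0.44 and 2.60 ± 0.44, Itga4 at 1.62 ± 0.08 and 1.40 ± 0.08, and the laminin receptor chain Itga3 at -1.40 ± 0.09 and -1.02 ± 0.09. Itga2 was at 1.06 ± 0.25 in siLoxl1 and Itgal at 0.88 ± 0.09 in siLoxl2. All 4 other beta chains rose in both, Itgb7 by 2.88 ± 0.13 and 3.12 ± 0.13, Itgb4 by 1.44 ± 0.06 and 1.32 ± 0.06, Itgb2 by 0.91 ± 0.13 and 0.70 ± 0.13, and Itgb6 by 0.88 ± 0.20 and 0.87 ± 0.20, although with normexp background correction 1 of the 4 fell in each. Itgax and Itgb6 were each above background on 3 of 4 scr arrays, at scr means of -4.44 and -4.26. The size of their folds therefore rests on scr values near background. Other matrix receptors rose in 6 of 10 and fell in 0 in both, led by Lrp1, Mrc2, Lair1 and Sdc4. Lrp1 was at 1.10 ± 0.13 and 1.21 ± 0.13, Mrc2 at 1.11 ± 0.17 and 1.13 ± 0.17, Lair1 at 1.11 ± 0.11 and 1.05 ± 0.11, and Sdc4 at 1.14 ± 0.09 and 0.73 ± 0.09. After quantile normalization 2 and 1 of them fell.

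Of 20 ligands, 8 fell in both, 5 rose in siLoxl1 and 4 in siLoxl2, although with normexp background correction 7 rose and 7 fell in siLoxl2. Postn, which encodes periostin, was at 3.45 to 3.85 in scr and at 0.53 to 0.83 on slide 2, a difference of -2.92 ± 0.14 in siLoxl1 and -2.95 ± 0.14 in siLoxl2. Spp1, which encodes osteopontin, an av ligand, rose by 2.53 ± 0.15 and 2.51 ± 0.15. Npnt, which encodes nephronectin, the ligand of the a8 chain, was at -1.45 ± 0.10 and -1.40 ± 0.10, and Col3a1 at -1.001 ± 0.25 and -0.93 ± 0.25. Of 31 focal adhesion genes, 12 rose and 7 fell in siLoxl1 and 13 rose and 10 fell in siLoxl2, but after quantile normalization more fell (12 and 14) than rose (6 in both). The ligands that passed were thus 13 and 12 of 20 and the focal adhesion genes 19 and 23 of 31, beside 65.1% and 64.8% of all genes (43.3% and 41.4% higher, 21.9% and 23.4% lower). Nedd9 was at -1.47 ± 0.10 and -1.36 ± 0.10, Dab2 at 1.30 ± 0.09 and 1.21 ± 0.09, and Lims1 at -0.85 ± 0.09 and -1.06 ± 0.09. Parva rose by 0.91 ± 0.07 in siLoxl1 and Itgb1bp1 by 0.84 ± 0.06 in siLoxl2.

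Markers of cell types moved with the same comparisons, and in bulk RNA fewer cells of a type and less RNA per cell cannot be told apart. In siLox, where 13.5% of all genes fell and 11.5% rose, 5 of 9 fibroblast markers fell and 0 rose, Thy1 at -0.84 ± 0.16, Fbln1 at -0.60 ± 0.13, S100a4 at -0.50 ± 0.06 and Col1a2 at -0.46 ± 0.12. Their summed signal relative to the 75th percentile, a sum that the brightest markers dominate, was 976 to 1035 in scr and 679 to 854 in siLox. Of 13 leukocyte and macrophage markers 2 rose (Marco at 1.08 ± 0.15 and Ctss at 1.02 ± 0.31) and 0 fell, and 9 rose with replicate 4 of both groups left out, with sums of 24.6 to 33.5 in scr and 30.6 to 36.6 in siLox. All 13 were above background on every array, Ptprc included. Pericyte and smooth muscle markers fell in 5 of 9 and rose in 1 (sums 640 to 754 and 525 to 672), with Rgs5 at -1.34 ± 0.26, Notch3 at -0.80 ± 0.18, Pdgfrb at -0.79 ± 0.18 and Cspg4 at -0.44 ± 0.11. Of 5 mesothelial markers 4 fell (Gpm6a, Lrrn4, Wt1 and Upk3b, by 0.68, 0.54, 0.34 and 0.29, sums 9.63 to 10.73 and 7.80 to 8.26). Of 4 tested epithelial markers Krt19 and Krt8 rose (0.77 ± 0.13 and 0.27 ± 0.08, sums 8.60 to 9.78 and 10.6 to 11.7), and of 7 tested endothelial markers Flt1 fell (-0.80 ± 0.14, sums 9.06 to 10.4 and 5.53 to 8.24). Their part in the receptor values was not tested.

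On slide 2 against scr more markers passed in every list but that of pericytes and smooth muscle, as did more of all genes (65.1% in siLoxl1 and 64.8% in siLoxl2, against 25.0% in siLox). Fibroblast markers rose in 7 of 9 in siLoxl1 and 6 of 9 in siLoxl2, and 1 fell in each, with Pdpn at 2.28 and 2.11 and Pdgfra at 1.32 and 1.29 (sums 1285 to 1331 and 1169 to 1261). After quantile normalization 4 rose and 2 fell in siLoxl1, and 4 rose and 1 fell in siLoxl2. With normexp background correction 8 and 7 rose and 1 fell in each. Of 13 leukocyte and macrophage markers, 6 and 5 rose and 2 fell in each, with Aif1 at -2.18 and -1.90 and Cd68 at 0.89 and 1.16 (sums 38.4 to 41.0 and 40.9 to 44.5). Itgam, at a mean level of 4.33 and 4.47, is the largest part of these sums. The mean log2 level of the listed leukocyte markers was -1.02 to 0.07 in scr, -0.31 to -0.24 in siLoxl1 and -0.40 to -0.11 in siLoxl2. Of 5 mesothelial markers 4 fell and 1 rose in each, Wt1 at -2.38 and -2.64 (sums of at most 6.55 and 5.61). Pericyte and smooth muscle markers fell in 4 of 9 and rose in 2 in each, with Rgs5 at -4.13 and -3.99 (sums 750 to 781 and 715 to 788). Rgs5 was above background on 2 of 4 siLoxl1 arrays and 1 of 4 siLoxl2 arrays, so the size of its fold rests on values near background. After quantile normalization 6 of these markers fell and 2 rose in siLoxl1, and 4 fell and 2 rose in siLoxl2. Of 4 tested epithelial markers 2 fell and 1 rose in each, Krt8 at -4.24 and -4.36, Krt18 at -3.29 and -3.41 and Krt19 at 2.33 and 2.39 (sums 16.3 to 17.5 and 16.1 to 18.4). These sums are mostly Krt19, at a mean level of 4.01 and 4.07. The mean log2 level of the listed epithelial markers was -3.74 to -3.57 in scr, -4.65 to -4.57 in siLoxl1 and -4.92 to -4.63 in siLoxl2. This mean includes the 5 markers that were above background on 0 arrays, so part of the difference rests on background values. The pericyte and smooth muscle sums are likewise mostly Acta2 and Cnn1. Of 7 tested endothelial markers, 4 fell in each, 1 rose in siLoxl1 and 2 in siLoxl2, with Emcn at -2.99 and -3.00 (sums 9.02 to 9.70 and 9.19 to 9.95). Emcn was above background on 1 of 4 siLoxl1 arrays and 0 of 4 siLoxl2 arrays, so the size of its fold also rests on values near background. Whether these follow the siRNA, the slide or the cells on it cannot be told apart. Between siLoxl1 and siLoxl2, where 8.81% of all genes passed, 1 of 9 fibroblast, 2 of 13 leukocyte, 0 of 4 epithelial, 2 of 7 endothelial, 1 of 5 mesothelial and 0 of 9 pericyte markers passed in limma, with 0 epithelial and 1 pericyte marker at an unadjusted p under 0.05.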

How the data were processed

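Total RNA of 16 samples, 4 in each of the groups scr, siLox, siLoxl1 and siLoxl2, was labelled with Cy3 and read on one-colour Agilent arrays. Groups and replicate numbers are those of the labels. The deposited scanner values are spot intensities after background subtraction, made with Agilent Feature Extraction 10.7.3.1 per the file headers. The normexp alternative started instead from the mean signal and the median background signal of each spot, before background subtraction. The other value columns used are flags of 0 or 1 per spot. All were deposited beside the scanner values. A value table by the authors, in log2 units, served as an alternative. Its columns correlated with the scanner values at r = 0.997 to 0.999, their sorted values differed by at most 0.000965, which shows quantile normalization, and its median was 4.83.

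Outlier spots were left out, spots of a probe were averaged, and each array's log2 intensity was set relative to its 75th percentile over non-control probes. A probe was kept where some group had it well above background on each of its 4 arrays, which left 32430 probes (58.2%) and 22644 genes, 6620 of them with over 1 kept probe, and 46 further probes without a usable spot on an array were dropped. The percentile was 8.67 to 9.03 on slide 1 and 9.74 to 9.90 on slide 2, and 0 probes were saturated. Probe positions are in mm9, the build of the scanner files. Symbols were updated through RefSeq accessions of GRCm38.p6 (28026 probes matched, 1651 symbols changed, 0 of the receptors), and promoters come from RefSeq in that build. No arrays held identical values.

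Genes were tested with limma 3.58.1 in R 4.3.3, with Benjamini-Hochberg adjustment over all genes and a threshold of 0.05. The 8 arrays of a slide entered the comparisons within a slide, and all 16 arrays those between slides. For single receptors an exact two-sided permutation test was added. The receptors and the gene lists were chosen with earlier results of these data known. The text names all 10 receptors, the targeted genes and, of each list, up to 4 genes with the largest change that passed, or 2 where none did. Alternatives were quantile and normexp normalization, the value table, 2 other filters on dim probes, the mean of a gene's probes, other sets of arrays, array weights, a replicate block and each array left out. Leaving out replicate 4 of scr and siLox together was added after seeing the data. Precision is limited by having 4 arrays a group.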

Additional observations from a re-analysis of the deposited data

Results flagged for a closer look

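Among 40 groups of 4 arrays, 1 for each receptor gene in each group, 2 held an array that stood apart from the other 3 (Dixon's test), and chance alone marks about 1 group in 20. Both are siLoxl1 array 1. Ddr2 was at 4.49 there and at 4.72 to 4.75 on the other siLoxl1 arrays. Itga1 was at -0.60 there and at -0.31 to -0.26 on the others.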

How the results depend on the processing

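The calls within slides depended on the settings, whereas the directions of the called receptors did not turn under any alternative run. In siLox against scr, the 2 receptors became 7 with normexp background correction, with a fit of all 16 arrays, with array weights and with replicate 4 of both groups left out, 6 with probes above background on all 16 arrays, and 0 with a replicate block. Leaving out 1 array gave 0 to 6 receptors. The fit of all 16 arrays and that with array weights also draw on slide 2. There the median SD of a gene within groups was 0.0969, against 0.163 on slide 1. The receptor counts of these 2 fits therefore do not rest on the spread of slide 1 alone. The 5655 genes became 2969 without a filter, 9745 with all 16 arrays and 3 with the replicate block, and 1830 to 7828 with 1 array left out. With replicate 4 of both groups left out, 4125 of all 22644 genes passed lower and 3675 higher. With normexp background correction 3235 passed lower and 3024 higher. In siLoxl1 against siLoxl2, the 2 receptors became 0 without a filter, with all 16 arrays or with the replicate block, 1 with array weights, and 0 whichever array was left out. The 1994 genes became 647, 905 and 853 under the first 3 of these settings and 609 to 1409 with 1 array left out. In siLoxl1 against scr, 8 receptors became 3 after quantile normalization and in the value table of the authors, and 6 to 8 with 1 array left out. Of all 22644 genes, 7822 still passed higher and 6261 lower after quantile normalization, and 7801 and 6278 in the value table. In siLoxl2 against scr the count was 4 to 7 under all alternatives.

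Same-numbered arrays did not deviate together in siLox and scr (r = -0.119, -0.0205, -0.002 and -0.186), so the numbers do not pair them. In siLoxl1 and siLoxl2 the values were 0.121, 0.215, 0.126 and 0.0434, and each array correlated best with its own number. Arrays of the same number also held the same position in their rows of the slide. The main fit has no term for this, so its calls between siLoxl1 and siLoxl2 leave a shared number out of account. A block of slide cannot be a term between slides.

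Signs that turned belong to receptors that passed in neither setting, and the ranges here are over 1 array left out in turn. Between siLox and scr, Itgb1 was at 0.000561 after quantile normalization. Between siLoxl2 and scr, Itga5 was at 0.19 with normexp and ranged from -0.0883 to 0.0498, above 0 without scr replicate 1. The rest are between siLoxl1 and siLoxl2. Itga11 ranged from -0.0591 to 0.00279. Itgb1 was at 0.0269 with the mean of its probes and ranged from -0.0568 to 0.00404. Itgb3 was at -0.0198 with normexp, -0.00233 after quantile normalization, -0.00148 in the value table and -0.0948 with the mean of its probes, and ranged from -0.0311 to 0.0549. Ddr1 was at -0.00984 after quantile normalization and -0.00930 in the value table and ranged from -0.0460 to 0.0614. Ddr2 was at -0.0507, -0.0523 and -0.0514 with normexp, quantile normalization and the value table and at -0.00137 with the mean of its probes, and ranged from -0.0119 to 0.0751. The cause of these changes was not tested.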
